A study of Mus musculus with 58 samples.

Results

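Among 58 RNA libraries labelled as mouse prefrontal cortex, those nearly free of olfactory bulb transcripts were compared with those carrying many. They were chosen by the level of Doc2g, a double C2-domain protein gene expressed by projection neurons of the olfactory bulb. The 9 libraries with a Doc2g normalised count under 100 are called bulb-poor, and the 23 libraries at 1000 or more are called bulb-rich. The 26 libraries between these limits are called intermediate and were kept apart. The labels name prefrontal cortex alone, so bulb-poor and bulb-rich are names for a marker level, not for a recorded dissection.

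The mice were C57BL/6J, a single inbred strain, and the labels gave them as heterozygous (HT, 30 libraries) or wild-type (WT, 28 libraries) for the histone methyltransferase gene Kmt5b. Nursing pups took in vehicle, fluoxetine (a serotonin reuptake inhibitor) or lithium with the mother's milk for 3 weeks, from postnatal day 3 to 24, and brains were sampled on day 25. Each genotype and treatment had 10 libraries except WT lithium with 8, and both sexes were present in equal numbers. No label gave the litter or the allele, and no dissection record was used here, so p-values measure only the spread between these samples. The Kmt5b normalised count was not lower under the HT label, at 1734 ± 98.3 (SD, n = 30) compared with 1654 ± 137 (SD, n = 28) under the WT label. Kmt5b also varied with the classes, with medians of 1607 in bulb-poor and 1782 in bulb-rich libraries (log2 difference 0.149). The genotype means were not adjusted for that. Recovered depth was 24.0 to 33.8 M reads in bulb-poor, 23.9 to 37.7 M in intermediate and 23.5 to 38.6 M in bulb-rich libraries.

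The olfactory bulb lies directly in front of the frontal cortex. Sensory axons from the nose end in its glomeruli on mitral and tufted cells, which are glutamatergic and send the signal on to olfactory cortex. Periglomerular and granule cells are its GABAergic interneurons, and they are replaced throughout life by neuroblasts that reach the bulb along the rostral migratory stream. In bulk tissue, fewer cells of a type and less RNA per cell cannot be told apart.

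The 4 marker genes named for the bulb were Doc2g, Eomes, Cdhr1 and Tbx21, and they are genes of mitral and tufted cells. Eomes and Tbx21 encode T-box transcription factors, and Cdhr1 encodes a cadherin-related adhesion protein. These 4 genes lie on 4 chromosomes and had nearly parallel levels across the libraries, and no cause of that was tested. The 250 bases upstream of each RefSeq start (GRCm38.p6) are shown. They run 5′ to 3′ on the gene's strand, and capitals mark each GTGTGA, a core of the T-box recognition element, or its reverse complement TCACAC.
Doc2g, chr19:4003135-4003384, plus strand: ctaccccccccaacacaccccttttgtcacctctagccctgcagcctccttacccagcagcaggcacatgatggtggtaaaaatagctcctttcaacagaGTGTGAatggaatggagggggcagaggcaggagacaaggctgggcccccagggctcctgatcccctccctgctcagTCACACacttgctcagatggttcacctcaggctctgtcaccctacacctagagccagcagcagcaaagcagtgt
Eomes, chr9:118477939-118478188, plus strand: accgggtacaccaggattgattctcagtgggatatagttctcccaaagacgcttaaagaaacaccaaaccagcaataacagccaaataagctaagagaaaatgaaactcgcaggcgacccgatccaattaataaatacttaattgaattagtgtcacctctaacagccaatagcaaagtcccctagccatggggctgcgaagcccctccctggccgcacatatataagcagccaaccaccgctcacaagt
Cdhr1, chr14:37098348-37098597, minus strand: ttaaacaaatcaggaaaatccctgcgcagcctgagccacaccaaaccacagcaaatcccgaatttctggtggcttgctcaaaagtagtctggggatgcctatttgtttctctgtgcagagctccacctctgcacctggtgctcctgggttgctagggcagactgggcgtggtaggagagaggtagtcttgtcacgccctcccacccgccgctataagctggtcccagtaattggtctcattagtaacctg
Tbx21, chr11:97115332-97115581, minus strand: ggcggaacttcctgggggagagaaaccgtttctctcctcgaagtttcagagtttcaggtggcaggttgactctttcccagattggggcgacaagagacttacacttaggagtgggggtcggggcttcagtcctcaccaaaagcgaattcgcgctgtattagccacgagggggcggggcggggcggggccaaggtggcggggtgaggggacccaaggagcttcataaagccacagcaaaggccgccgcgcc
The Doc2g window held 2 such matches, 150 and 74 bases upstream of the start, and the other 3 windows held 0. This hexamer, on either strand, occurs in 4039 of 32851 RefSeq windows of this length, or 12.29%, and it was chosen after the sequences were seen. A match is a description of letters and not a binding site.

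Doc2g (ENSMUSG00000024871) chose the groups, so its values are a description. It was 37.1 to 76.7 in bulb-poor libraries with a median of 50.6, and 1082 to 3566 in bulb-rich libraries with a median of 1448. Intermediate libraries ran from 117 to 963 with a median of 674. The library just under the lower limit had 76.7 and the one just above it 117, while 963 and 1082 stood on either side of the upper limit. On a log scale the step at the lower limit was wider than that at the upper one. The next step, from 117 to 232, was wider still, so the lower limit did not fall at the widest gap. The library at 117, WT vehicle male 1, had an Eomes of 8.61 and a Cdhr1 of 88.2, both within the bulb-poor ranges. Its Tbx21 of 9.68 lay just above the highest bulb-poor value of 7.76.

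**Figure D1:**
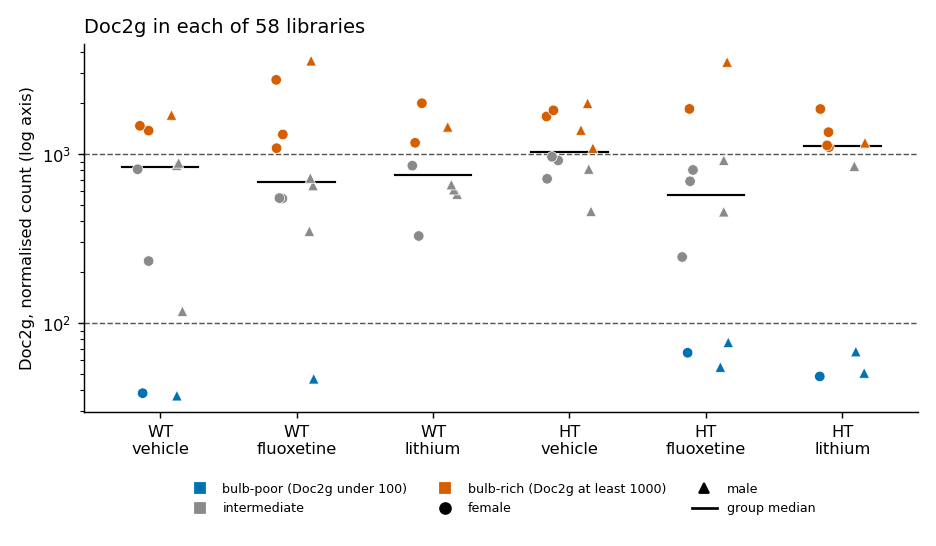
Doc2g normalised count in each of 58 libraries (log axis) by genotype and treatment; circles are females, triangles males, black bars group medians and dashed lines the limits of 100 and 1000. Bulb-poor libraries (blue) occurred in 4 of the 6 groups, and bulb-rich libraries (orange) in all 6.

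Bulb-poor libraries were unevenly spread over the study's groups. There were 3 each in HT fluoxetine and HT lithium, 2 in WT vehicle and 1 in WT fluoxetine, and 0 in HT vehicle and WT lithium. The mean log2(Doc2g + 1) was 10.08 ± 0.67 (SD, n = 10) in HT vehicle libraries. WT vehicle libraries had 8.62 ± 2.14 (SD, n = 10), with overlapping ranges of 458 to 1995 and 37.1 to 1703 on the count scale. Fluoxetine and lithium means were 8.65 and 8.90 in HT, and 9.47 and 9.695 in WT libraries. The drug groups thus lay below vehicle in HT and above it in WT libraries. Over all 58 libraries the HT minus WT difference was -0.02 (two-sided permutation p = 0.9622, adjusted p = 0.9622 over 3 tests, 100000 resamples). The 3 treatment means spanned 0.29 (permutation p = 0.8785, adjusted p = 0.9622), with vehicle at 9.35, lithium at 9.25 and fluoxetine at 9.06. Males were 0.52 lower than females on average, a male minus female difference of -0.52 (permutation p = 0.2552, adjusted p = 0.7656). Bulb-poor libraries made up 6 of 30 HT and 3 of 28 WT libraries (two-sided Fisher exact p = 0.4731), and 6 of 29 male and 3 of 29 female libraries (p = 0.4703). None of these 5 tests passed, and with 9 bulb-poor libraries they do not show that the groups were alike. Each compared 1 label pooled over the others, so opposite differences in the 2 genotypes could cancel. A genotype by treatment difference in Doc2g was not tested.

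The main difference between the classes was one-sided in size. Of 16668 genes kept for an average value of 10 or more, Doc2g left out, 203 were more than 2-fold higher in bulb-rich libraries at an adjusted p under 0.05 (limma), which is 1.22% of genes tested, and 1, a predicted gene, was more than 2-fold lower (0.006%). Counted without a fold limit, 5444 genes (32.7%) passed, 2539 higher (15.2%) and 2905 lower (17.4%), while the median difference over all genes was -0.006. In 236 genes (1.42%) every bulb-rich library lay above every bulb-poor library, and in 16 (0.096%) every one lay below. Since the libraries were sorted on a bulb gene, these calls describe what varied along with Doc2g, and no p-value from this contrast is used as support. The count fell to 354 in WT libraries alone (347 higher, 7 lower, 3 bulb-poor libraries), to 671 in females (525 higher, 146 lower) and to 3510 without the 3 bulb-rich libraries above 2500, namely WT fluoxetine male 1, HT fluoxetine male 4 and WT fluoxetine female 3. Differences are on the log2(value + 1) scale, which understates the change of low genes.

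Markers of mitral and tufted cells were first read singly, and Eomes had the largest difference of all named genes. Eomes (ENSMUSG00000032446, chr9:118478212-118486132) was 3.59 to 14.9 in bulb-poor libraries with a median of 5.07, and 215 to 1044 in bulb-rich libraries with a median of 419.7. The ranges did not come near each other, and the log2 difference of 6.16 (SE 0.19) corresponded to 71.7-fold. Tbx21 (ENSMUSG00000001444, chr11:97098071-97115331) was 0.96 to 7.76 with a median of 3.81 in bulb-poor and 99.0 to 324 with a median of 140.5 in bulb-rich libraries, a log2 difference of 5.50 (SE 0.22). Cdhr1 (ENSMUSG00000021803, chr14:37077857-37098347) was 44.3 to 149.7 with a median of 98.8 against 1534 to 5644 with a median of 2234, a log2 difference of 4.74 (SE 0.20). All 3 genes were thus close to absent or low, but not at 0, in the bulb-poor tissue.

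Of 11 genes listed for mitral and tufted cells, 9 were tested beside Doc2g, and 7 were higher, 1 lower and 1 did not pass. Their median log2 difference was 0.97, against -0.006 over all genes, of which 15.2% were higher and 17.4% lower. Lbhd2 was 1.197 to 6.44 in bulb-poor and 23.7 to 134 in bulb-rich libraries, again without overlap. Reln, the secreted glycoprotein reelin, and Ntng1, the axon guidance molecule netrin-G1, are also made in cortex or thalamus. Reln had medians of 1960 and 3021 with overlapping ranges (log2 difference 0.79), and Ntng1 had medians of 422.5 and 829.6 without overlap (0.97). Slc17a6, the vesicular glutamate transporter VGLUT2, was less different, with medians of 595.5 and 717 (0.31). Olfm1, olfactomedin 1, was the lower gene, 29960 to 33450 in bulb-poor and 22100 to 29710 in bulb-rich libraries (-0.22).

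**Figure D2:**
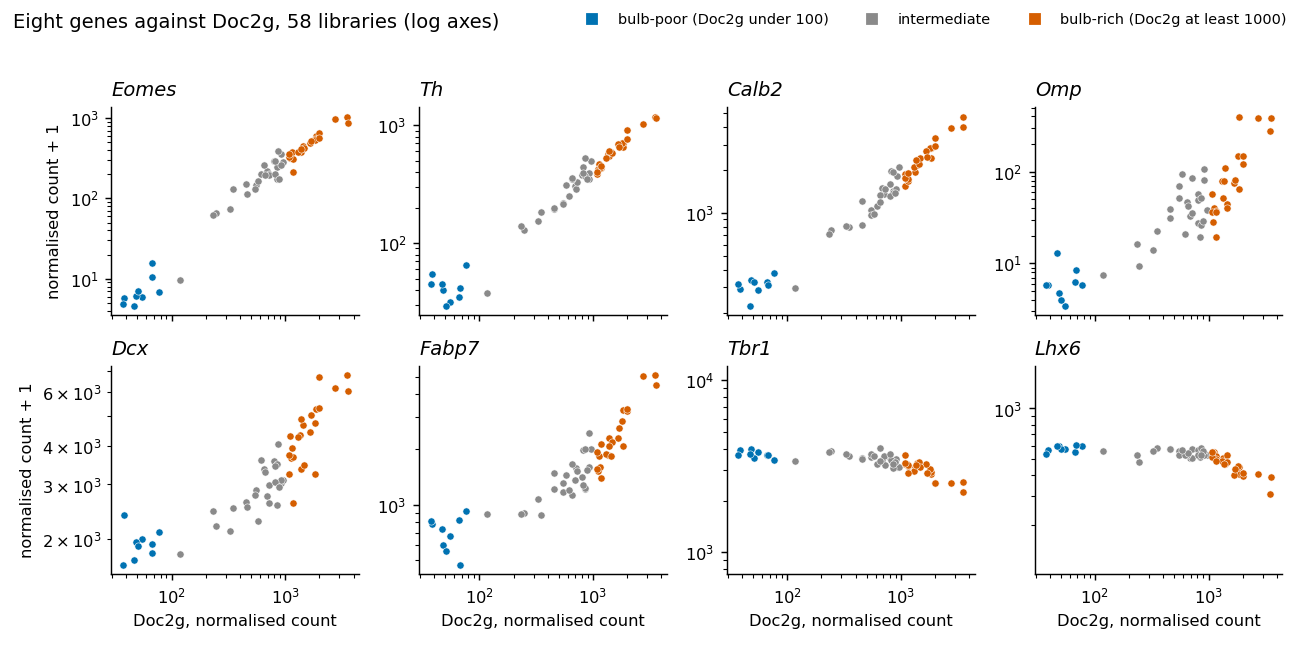
Normalised count + 1 of 8 genes against Doc2g in 58 libraries, both axes logarithmic with a range of their own per gene; blue is bulb-poor, grey intermediate, orange bulb-rich. Eomes, Th and Calb2 climb with Doc2g above the bulb-poor range with little scatter and Omp with more, while Tbr1 and Lhx6 are lower at high Doc2g.

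Interneuron genes of the bulb formed the broadest group. Of 20 listed genes for granule and periglomerular cells, all 20 were tested, and 18 were higher, 1 was lower and 1 did not pass, with a median log2 difference of 1.185. In 14 of them all bulb-rich libraries lay above all bulb-poor ones. Among all genes 15.2% were higher, 17.4% lower and 1.42% higher without overlap. The list's summed normalised count was 32860 to 36380 in bulb-poor and 45050 to 76350 in bulb-rich libraries.

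Periglomerular genes led this list. Th, the rate-limiting enzyme of dopamine synthesis, was 28.3 to 64.1 in bulb-poor libraries with a median of 40.8, and 384 to 1184 in bulb-rich libraries with a median of 586, a log2 difference of 3.91 (SE 0.16). Calb2, the calcium-binding protein calretinin, was 221.5 to 377.5 with a median of 318 against 1547 to 4749 with a median of 2357, a difference of 3.01 (SE 0.14). Both therefore separated the classes fully, but Calb2 kept a substantial level in the bulb-poor tissue, where cortical interneurons also make it. Scgn, the calcium sensor secretagogin, was 2.15 to 14.6 with a median of 4.88 against 104 to 381 with a median of 152.5 (4.84, SE 0.18). Trh, the precursor of thyrotropin-releasing hormone, was 17.96 to 35.5 against 142 to 434.5 (3.03, SE 0.16).

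Transcription factors of the interneuron lineage followed in a graded order. Sp8, a zinc finger factor of dorsal lateral ganglionic eminence descendants, had medians of 81.6 and 463 (log2 difference 2.62). Pbx3, a homeobox cofactor, had 282 and 1147 (2.17), and Tshz1, a zinc finger factor needed for neuroblasts to leave the migratory stream, had 716 and 2187 (1.67). Dlx5 and Pax6 differed by 1.31 and 1.24, and Meis2, which is also expressed in other forebrain neurons, by 0.62. None of these 6 factors overlapped between the classes, beside 1.42% of all genes that were higher without overlap. Of other regulatory genes in the list, Dlx6 (1.13) did not overlap either. Etv1, at 2462 to 2970 against 2250 to 4100 (0.26), and Eya1 (0.13, not passed) did overlap.

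Genes shared by GABAergic neurons of bulb and cortex differed less. Gad1, which makes GABA from glutamate, was 6223 to 6800 in bulb-poor and 8844 to 13990 in bulb-rich libraries (0.74), without overlap. Gad2 and the vesicular GABA transporter Slc32a1 differed by 0.36 and 0.40 and overlapped. Pcp4, a Purkinje cell protein gene that deep cortical neurons also express, was the lower gene of the list (-0.16), with medians of 5701 and 5530.

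Neuroblast genes were also higher in bulb-rich tissue. Of 15 listed, 12 were higher, 1 lower and 2 did not pass, beside 15.2% higher and 17.4% lower among all genes. Their median was 0.54, and Gad1 and the Dlx genes stand in other lists too. Dcx, the microtubule protein doublecortin of migrating neurons, was 1644 to 2378 in bulb-poor libraries with a median of 1914, and 2607 to 6806 in bulb-rich libraries with a median of 4352 (1.23, SE 0.12). The distal-less homeobox genes Dlx1 and Dlx2 differed by 1.72 and 1.49, and the zinc finger factor Sp9 by 1.88, each without overlap. Igfbpl1 and Prokr2, the latter a prokineticin receptor that guides neuroblasts to the bulb, differed by 1.92 and 1.48 with overlapping ranges. Stmn2, a stathmin of growing axons in many neurons, was the lower gene (-0.22).

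Proliferation genes were read beside the neuroblast list. Of 30 cell cycle genes, 2 were higher, 0 lower and 28 did not pass, with a median of 0.11, beside 15.2% higher and 17.4% lower among all genes. Within the bulb-rich libraries 26 of the 30 slopes on Doc2g were positive, with a median of 0.16. There 3 rose and 0 fell, beside 9.9% and 11.8% of all genes. The mitotic checkpoint kinase Bub1b (0.66) and the cytokinesis protein Prc1 (0.41) were the 2 genes higher in the contrast. Mki67, the proliferation marker, was 61.2 to 146.5 in bulb-poor and 50.4 to 190.3 in bulb-rich libraries, with medians of 79.0 and 102.

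The outer nerve layer of the bulb holds sensory axons and olfactory ensheathing cells, the glia that wrap them. Of 17 genes listed for both, 8 were higher, 3 lower and 6 did not pass, with a median of 0.19, beside 15.2% higher and 17.4% lower among all genes. Omp, olfactory marker protein of mature sensory neurons, was 2.44 to 11.97 in bulb-poor libraries with a median of 4.85, and 18.2 to 398 in bulb-rich libraries with a median of 75.1 (3.96, SE 0.35). The classes did not overlap, and the bulb-rich libraries also spread widely among themselves. Stoml3, a stomatin-like protein of sensory neurons, was 0 to 4.38 with a median of 0.97 against 6.10 to 157 with a median of 25.5 (4.34, SE 0.37). Among bulb-rich libraries the ratio of Omp to Doc2g had an SD of 0.86 on the log2 scale, compared with 0.18 for Eomes and 0.12 for Th.

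The glial members of that list were less different. Fabp7, the brain lipid-binding protein of ensheathing and radial glia, was 468 to 920 in bulb-poor and 1398 to 5092 in bulb-rich libraries (1.84), without overlap. Frzb, a secreted Wnt antagonist, had medians of 699 and 961 (0.53), also without overlap. Serpine2, Mybpc1, Fbln2 and Ngfr differed by 0.19, 0.56, 0.64 and 0.94 and overlapped. The lower members included the growth cone gene Gap43 and the peptide gene Npy, by -0.22 and -0.14, and cortical neurons also make both.

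The 20 genes with the largest difference toward bulb-rich libraries, at a mean count of at least 50, contained 12 genes outside the marker lists. Ms4a15, a membrane-spanning 4A family member, was second to Eomes, at 1.01 to 11.7 in bulb-poor and 197 to 707 in bulb-rich libraries (5.84, SE 0.20). Shisa3, an antagonist of Wnt and FGF receptor maturation, was 2.93 to 24.9 against 157 to 809 (4.94, SE 0.25). Frmd7, a FERM domain protein gene whose human form is tied to congenital nystagmus, was 9.76 to 46.6 against 164 to 919 (4.29, SE 0.22).

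The remaining genes of this kind had varied known products. Signalling genes were Nmb, the peptide neuromedin B (3.34), and Vipr2, a receptor for vasoactive intestinal peptide and PACAP (3.29). Enzymes and motors were the axonemal dynein Dnah11 (4.58), the phosphatase Ppm1j (3.98), the metalloprotease Adamts19 (3.89) and the small GTPase Rab37 (3.19). The sensory scaffold gene Ush1g (3.37), the transcription factor Sp7 (2.98) and the AMPA receptor auxiliary subunit gene Shisa8 (2.80) completed the set. For all 20 genes no bulb-poor library reached the lowest bulb-rich library.

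Over all 58 libraries, with genotype and treatment means removed, the 10 genes most like Doc2g had Pearson r from 0.987 (Eomes) down to 0.974 (Shisa8). The other 8 were Ms4a15, Th, Calb2, Tbx21, Cdhr1, Scgn, Frmd7 and Nmb. Without the 2 libraries farthest from the median Doc2g, r was 0.984 for Eomes and 0.969 for Shisa8. These points share 1 normalisation per library, and the values describe likeness only.

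The 26 intermediate libraries were left out of the contrast, and slopes on Doc2g were fitted in them. Their own Doc2g values set their class, and the markers and gene lists were chosen with earlier results of these data known. The p-values therefore describe how genes varied with Doc2g in these libraries. A slope of 1 on log2(Doc2g + 1) means that a gene doubled when Doc2g doubled. By limma with Benjamini-Hochberg adjustment over all genes, 289 genes passed (1.73%), of which 273 rose with Doc2g (1.64%) and 16 fell (0.096%). Of the 203 genes more than 2-fold higher in bulb-rich libraries, 202 had a positive slope here and 124 passed. Of the 273 that rose, 263 had been called higher in bulb-rich libraries.

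The bulb markers Eomes, Cdhr1 and Tbx21 rose with slopes of 1.05 to 1.345 in these libraries. Of the 9 mitral and tufted genes tested, 6 rose and 0 fell, against 1.64% and 0.096% of all genes. Their median slope was 0.255, with 8 positive and 1 negative, and Lbhd2 and Ntng1 had slopes of 0.87 and 0.255. Eomes ranged from 8.61 to 386 and had a slope of 1.345 with SE 0.10 (limma adjusted p = 2.345e-10). Cdhr1 ranged from 88.2 to 1752 (slope 1.13, SE 0.07, adjusted p = 5.456e-11) and Tbx21 from 9.68 to 130.2 (slope 1.05, SE 0.10, adjusted p = 2.799e-08).

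Interneuron genes had slopes from about that of Doc2g to well below it. Th ranged from 36.6 to 528 (slope 1.04, SE 0.06, adjusted p = 8.234e-12) and Scgn from 6.46 to 102 (slope 1.13, SE 0.08, adjusted p = 3.295e-10). Calb2 had a slope of 0.74 (SE 0.05, adjusted p = 1.59e-10), Tshz1 0.43 (SE 0.04, adjusted p = 1.671e-08) and Gad1 0.17 (SE 0.03, adjusted p = 0.0001039). Of the 20 granule and periglomerular genes, 14 rose and 0 fell, against 1.64% and 0.096% of all genes, and all 20 slopes were positive.

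Neuroblast and nerve layer genes gave fewer calls, to be set beside 1.64% rising among all genes. Of 15 neuroblast genes, 8 rose, among them Dcx (slope 0.30, SE 0.05, adjusted p = 0.0001803) and Prokr2 (slope 0.705, SE 0.11, adjusted p = 0.0001935). Of 17 ensheathing and sensory axon genes, 3 rose, namely Omp (slope 1.02, SE 0.17, adjusted p = 0.0004709), Stoml3 (1.03, SE 0.21, adjusted p = 0.00431) and Fabp7 (0.38, SE 0.06, adjusted p = 0.0003428). Of 30 cell cycle genes 0 passed.

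All 20 genes furthest toward bulb-rich rose in the intermediate libraries. The count of genes that passed depended on the lowest libraries: without WT vehicle male 1, whose Doc2g was 117, it was 114 (113 rose, 1 fell) and all 20 still passed. Without the libraries under 400 it was 28 (28 rose), and 9 of the 20 passed, with all 20 slopes positive. Those that no longer passed included Tbx21, Omp, Nmb and Shisa8.

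**Figure D3:**
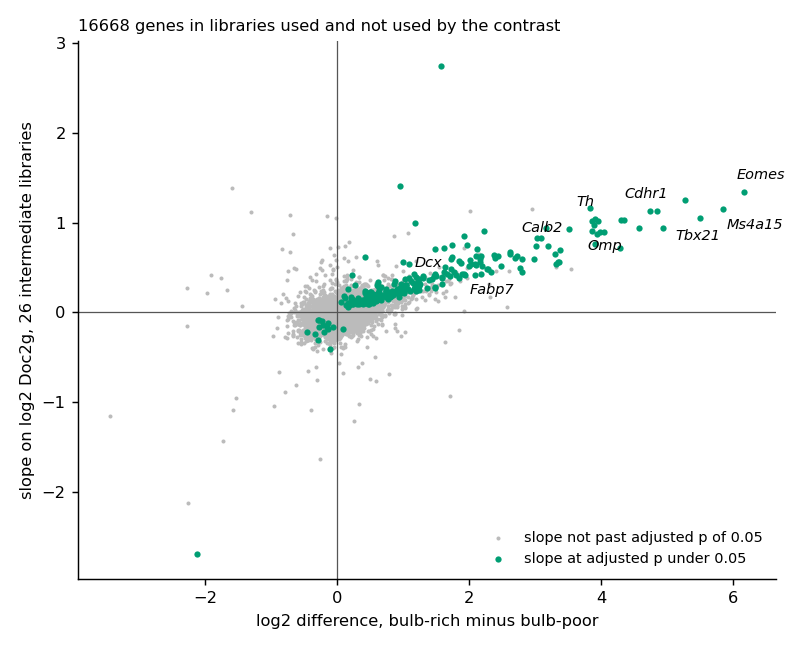
Each point is 1 of 16668 genes: the log2 difference between bulb-rich and bulb-poor libraries (x) against the slope on log2 Doc2g in the 26 intermediate libraries (y). Green points passed in the intermediate libraries (289 genes), and they extend to the upper right, where Eomes, Ms4a15 and Tbx21 lie.

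Within the 23 bulb-rich libraries Doc2g still varied, and 3617 genes (21.7%) passed for a slope on it, 1650 rising (9.9%) and 1967 falling (11.8%). Eomes, Th and Cdhr1 had slopes of 0.98, 0.94 and 1.02, and Omp had 1.67 (SE 0.25, limma adjusted p = 3.271e-05). All 20 genes furthest toward bulb-rich rose, and 15 of the 20 furthest toward bulb-poor fell. Without the 3 libraries above 2500 the count was 1460 (665 rising, 795 falling), and these numbers were 20 and 8.

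Genes higher in bulb-poor tissue differed by small amounts. The 20 with the largest difference at a mean count of at least 50 lay between -0.57 and -0.44 on the log2 scale, and in all 20 the classes overlapped. In WT libraries alone all 20 no longer passed, and in females alone 18 did not. Hcrtr1, an orexin receptor, was 60.4 to 113.5 in bulb-poor libraries with a median of 104, and 29.4 to 106 in bulb-rich libraries with a median of 70.2 (-0.57, SE 0.13). Nxph3, a neurexophilin made by deep-layer cortical neurons, was 702 to 896 with a median of 796 against 221 to 808 with a median of 607 (-0.52, SE 0.12). Others were Npsr1, the neuropeptide S receptor (-0.54), Mc4r, a melanocortin receptor (-0.49), Robo3, an axon guidance receptor (-0.49), and Sstr2, a somatostatin receptor (-0.46).

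Few of these genes were called in the intermediate libraries. Of the 20, 17 had a negative slope there and 1 passed, Thpo, the cytokine thrombopoietin (slope -0.22, SE 0.05, limma adjusted p = 0.01388). Hcrtr1 and Nxph3 had slopes of -0.03 (SE 0.06, adjusted p = 0.9014) and -0.02 (SE 0.05, adjusted p = 0.9195). Without an adjustment, 723 genes with a negative slope had p under 0.05 by limma, and 16 passed after it, of which 11 were also lower in bulb-rich libraries.

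Genes of cortical excitatory neurons were the list with the most uniform opposite direction. Of 22 listed, 21 were tested, and 19 were lower in bulb-rich libraries, 1 was higher and 1 did not pass. Their median was -0.30 against -0.006 for all genes, of which 17.4% were lower and 15.2% higher. Their summed normalised count was 295400 to 333400 in bulb-poor libraries with a median of 313400, and 201500 to 302800 in bulb-rich libraries with a median of 271100. The sums, in which the most abundant genes weigh most, overlapped. The mean log2 level of the list, relative to the average library, did not overlap, at 0.10 to 0.20 in bulb-poor and -0.46 to 0.09 in bulb-rich libraries.

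Single genes of this list moved by similar amounts. Slc17a7, the vesicular glutamate transporter VGLUT1, had medians of 51500 and 44950 (-0.27, SE 0.05). Tbr1, the T-box factor of early-born cortical neurons, was 3462 to 3981 in bulb-poor and 2242 to 3665 in bulb-rich libraries (-0.33, SE 0.06). The neurogenic factor Neurod2 and the kinase gene Camk2a differed by -0.39 and -0.32. Bcl11a, a zinc finger factor found in several forebrain neuron classes, was the higher gene (0.16), and Neurod1 (-0.18) did not pass. In the intermediate libraries 19 of the 21 slopes were negative, with a median of -0.05, but 0 passed. In the bulb-rich libraries 19 fell and 1 rose, beside 11.8% and 9.9% of all genes.

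Layer markers divided. Of 18 upper layer genes 11 were lower and 4 higher, with a median of -0.19, beside 17.4% and 15.2% of all genes. The calcium-binding protein Calb1 (-0.27), the LIM factor Lmo4 (-0.29) and the layer 4 nuclear receptor Rorb (-0.23) were lower, and the adhesion gene Mdga1 was higher without overlap (0.93). Rorb also fell in the intermediate libraries (slope -0.10, SE 0.02, limma adjusted p = 0.03558).

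Of 23 deep layer genes tested, 9 were higher and 8 lower, with a median of 0.02, beside 15.2% and 17.4% of all genes. The subcerebral neuron factor Fezf2 (-0.36) and the heparan sulfate enzyme gene Hs3st4 (-0.33) were lower. Syt6, a synaptotagmin, was 427 to 683 in bulb-poor and 1079 to 2372 in bulb-rich libraries (1.47), and the neurexophilin Nxph4 was 4.79 to 30.5 against 52.7 to 197 (2.28). Trh and Etv1 stand in this list and in the interneuron list.

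Interneuron genes of the cortex ran in both directions. Of 29 tested, 12 were higher and 11 lower, with a median of 0.04, beside 15.2% and 17.4% of all genes. Sst, the peptide somatostatin, was 4169 to 5280 in bulb-poor and 2252 to 4361 in bulb-rich libraries (-0.37, SE 0.07), and Pvalb, parvalbumin, was 567 to 824 against 252 to 782 (-0.37, SE 0.10). Lhx6, the LIM factor of medial ganglionic eminence interneurons, had medians of 573 and 463 (-0.35, SE 0.06).

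Cnr1, the cannabinoid receptor of cholecystokinin basket cells, was 5876 to 6862 in bulb-poor and 4501 to 5785 in bulb-rich libraries (-0.30, SE 0.04), and it was the lower gene of this list without overlap. Vip (-0.195), Cck (-0.30) and Lamp5 (-0.23) were lower with overlap. The higher genes included Calb2, Gad1, Gad2, Slc32a1, Dlx1, Dlx2, Reln, Ndnf, Adarb2, Nos1 and Crh. In the intermediate libraries 10 of the 29 rose and 0 fell, against 1.64% and 0.096% of all genes.

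**Figure D4:**
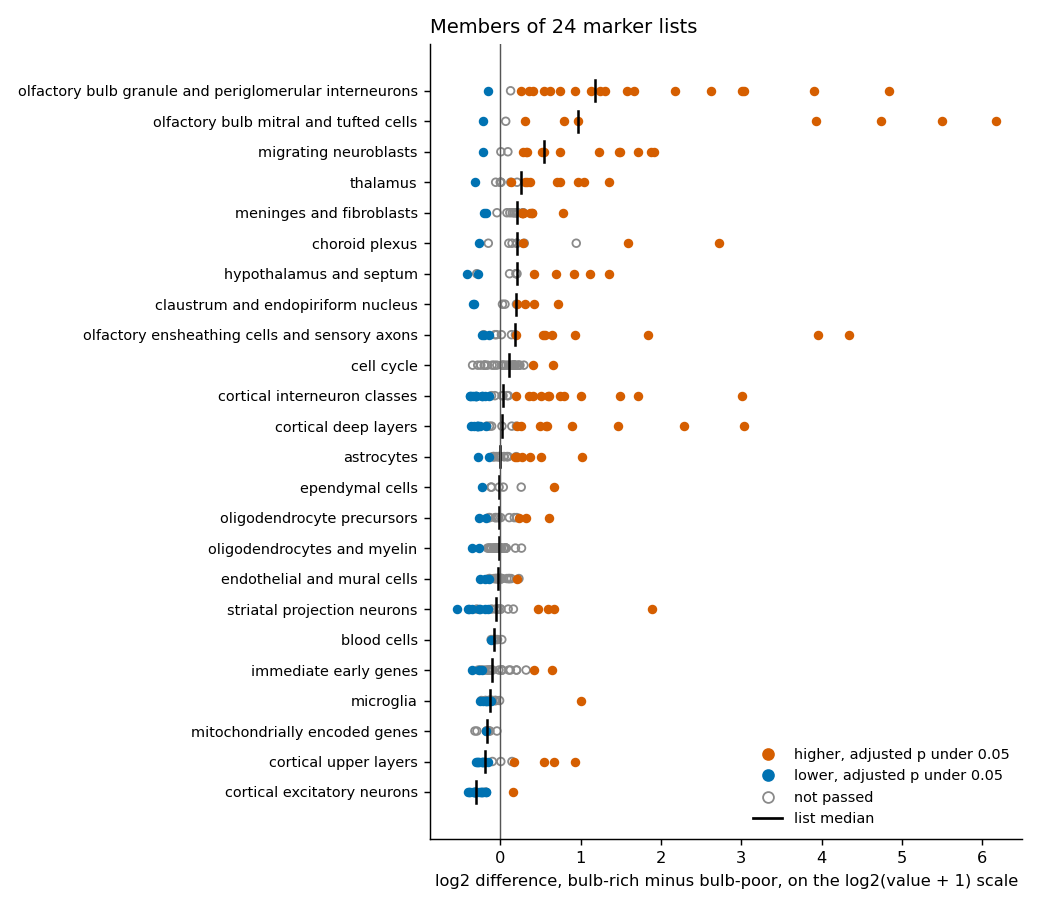
Log2 difference between bulb-rich and bulb-poor libraries for each tested member of 24 marker lists, ordered by list median (black bar); filled orange is higher and filled blue lower at adjusted p under 0.05, and open grey did not pass. Bulb and neuroblast lists lie furthest right and cortical excitatory neurons furthest left.

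Markers of other forebrain regions were read in the same way. Of 16 thalamic genes 9 were higher and 1 lower (median 0.26), led by Zic1 (1.36), Cbln1 (1.04), Ntng1 and Patj (0.74). The tissue that these transcripts came from was not tested. The thalamic transcription factors Tcf7l2 and Lef1 had medians of 104 and 128 (0.33) and of 190 and 184 (0.01, not passed). Of 21 striatal genes 4 were higher and 8 lower (median -0.06), beside 15.2% and 17.4% of all genes. Drd1 and Ppp1r1b, the D1 dopamine receptor and DARPP-32, were lower (-0.39 and -0.40). Drd2, Adora2a and Penk, for the D2 receptor, an adenosine receptor and enkephalin, were higher (0.47, 0.60 and 0.67), and the receptor gene Gpr6 did not pass (0.10). None of these 4 passed in the intermediate libraries, where Drd2, Adora2a and Gpr6 had slopes of -0.03, -0.08 and -0.05 and Penk 0.07. HT fluoxetine female 2, an intermediate library, had the highest mean striatal marker level of all 58, 0.99 on the log2 scale above the mean library, while bulb-poor libraries ran from -0.22 to -0.01 and bulb-rich from -0.16 to 0.08.

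Hypothalamic and septal genes numbered 12 tested, 5 higher and 2 lower, among the higher Zic1, Zic2, Zic4, Baiap3 and Nts. Of 9 claustrum and endopiriform genes 4 were higher and 2 lower. Both lists stand beside 15.2% higher and 17.4% lower among all genes. Hcrt, Avp and Oxt, the defining hypothalamic peptide genes, were not analysed here.

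Glial and vascular lists had medians between -0.12 and 0.002. The shares of all genes to set their counts beside are 15.2% higher and 17.4% lower. Of 31 oligodendrocyte genes 0 were higher and 2 lower, and Mbp, myelin basic protein, had medians of 43790 and 48490 (-0.04, not passed). Of 25 astrocyte genes 6 were higher and 2 lower; Gfap, the intermediate filament of astrocytes, was 2626 to 2932 in bulb-poor and 3051 to 5479 in bulb-rich libraries (0.51), without overlap. Of 26 microglial genes 7 were lower and 1 higher, Sall1 (1.001), a zinc finger factor that neural precursors also express. Of 15 oligodendrocyte precursor genes 3 were higher and 2 lower, and of 29 endothelial and mural genes 1 was higher and 3 lower.

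Meningeal genes gave different counts in the bulb-rich and the intermediate libraries, and that difference was not tested. Of 22 meningeal and fibroblast genes 8 were higher and 2 lower in the contrast (median 0.21), beside 15.2% and 17.4% of all genes. In the intermediate libraries 21 slopes were negative and 0 passed. Within bulb-rich libraries 11 rose and 0 fell, beside 9.9% and 11.8% of all genes. HT fluoxetine male 4, with a Doc2g of 3505, had the highest mean meningeal level of all 58 libraries, 0.64 on the log2 scale above the mean library, and the next, WT lithium female 3, had 0.37. Their summed normalised count was 25900 to 35230 in bulb-poor and 25540 to 45680 in bulb-rich libraries. With the meningeal marker level as a covariate the contrast called 3123 genes (1607 higher, 1516 lower). The part of meninges in the differences above was not tested further.

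Library measures that could accompany tissue differences overlapped between the classes. The share of mitochondrially encoded counts was 6.84% to 9.05% in bulb-poor libraries with a median of 8.15%, and 6.17% to 8.79% in bulb-rich libraries with a median of 7.51%. The mean immediate early gene level, relative to the average library, was -0.92 to 0.33 on the log2 scale in bulb-poor and -0.75 to 0.69 in bulb-rich libraries. Of 24 immediate early genes 2 were higher and 3 lower, beside 15.2% and 17.4% of all genes.

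Whether the difference between the classes itself differed by sex or genotype was tested with interaction terms. For the interaction with sex, limma called 0 of 16668 genes, with 869 at an unadjusted p under 0.05 and a smallest adjusted p of 0.835. For the interaction with genotype it called 0, with 259 at an unadjusted p under 0.05 and a smallest adjusted p of 0.4573. With 3 female and 3 WT bulb-poor libraries, these 0 calls do not show that the difference was alike in both sexes or genotypes. No other tool was run on these interactions.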

How the data were processed

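RNA of 58 mouse libraries was measured by stranded poly(A) sequencing, per the labels' protocols. The submitters' processing notes name Salmon 0.11.2, R 3.6.0, DESeq2 1.19.11 and GRCm38. The annotation release is not given in the sources used here. The authors deposited a normalised signal per gene and library, a table of 18088 genes, here called the normalised count. All values of a library (100%) were whole multiples of 1 step within a tolerance of 0.01, so reads were recovered as value over step, and the unit check took them for 54 of 58 libraries. GENCODE M21 gave symbols to 18077 genes.

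Genotype, treatment and sex came from the labels, and the Doc2g classes from the values. The fits used log2(value + 1), and 16669 genes with a mean of at least 10 over 58 libraries were kept, Doc2g not tested. A gene can pass that filter through its bulb-rich libraries alone. limma 3.58.1 (R 4.3.3, with trend) fitted the bulb-rich minus bulb-poor difference, and slopes on log2(Doc2g + 1) among intermediate and among bulb-rich libraries, with genotype and treatment as covariates and Benjamini-Hochberg adjustment over all genes. Genes under an adjusted p of 0.05 passed. The script was tested on simulated data. edgeR 4.0.16 and DESeq2 1.42.0 were run on recovered reads as alternatives.

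The design foresaw the genes named: the 4 markers, the 20 largest differences each way among genes that passed with a mean of at least 50, up to 6 members of each list by p, and the 10 genes most like Doc2g. Predicted genes (16 on the bulb-poor side) were not named, and some list members are not reported here. Members named outside these numbers, such as Lef1, Pcp4 and Stmn2, were chosen after their values were seen. The members, limits and gene lists were all chosen with earlier results of these data known. No pair of replicates within a group was as alike as sampling noise would make it: their difference was 2.94 to 57.9 times that noise over 112 pairs. Alternatives covered pseudocounts, filters, normalisation, covariates, other limits, single sexes and genotypes, and leaving out each bulb-poor library.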

Additional observations from a re-analysis of the deposited data

Results flagged for a closer look

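Within groups of 4 to 10 libraries, a single library was looked for that stood apart from the rest by Dixon's criterion, in Doc2g, Eomes, Cdhr1 and Tbx21. Of 52 combinations of a group and a gene, 10 had one, each time the highest library. Chance alone flags about 1 in 20 independent groups only where values are normally spread. The criterion was applied to normalised counts, not to log2 values, so a long upper tail can also give flags and that rate need not hold. The 4 genes ran nearly parallel and the 10 cases came from 4 libraries, so they are not independent, and Doc2g is the value that sorted the libraries.

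HT fluoxetine male 4 stood above the other HT fluoxetine males in Doc2g (3505, others 54.8 to 919), Cdhr1 (5644, others 76.7 to 1630) and Tbx21 (319, others 1.22 to 83.5). WT fluoxetine male 1 stood above the other WT fluoxetine males in Doc2g (3566, others 46.7 to 721), Cdhr1 (5218, others 44.3 to 1266) and Tbx21 (324, others 1.197 to 69.8). Both are among the 3 bulb-rich libraries above 2500.

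WT lithium male 2 stood above the other WT lithium males in Doc2g (1448, others 579 to 659), Eomes (443.5, others 162 to 200.5) and Tbx21 (185, others 47.5 to 68.3). Among the 9 bulb-poor libraries, HT fluoxetine male 3 had the highest Tbx21, 7.76 against 0.96 to 4.29 in the others.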

How the results depend on the processing

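The 5444 genes called between bulb-poor and bulb-rich libraries became 2114 (1162 higher, 952 lower) with a lower limit of 50, 671 in females only, 123 in WT vehicle libraries only (120 higher, 3 lower), 354 in WT libraries only, 3123 with a meningeal covariate and 3510 without bulb-rich libraries above 2500. The smaller sets have fewer samples, and for the others the cause was not tested. The share higher was 46.6% in the full contrast, 78.2% in females, 97.6% in WT vehicle and 98% in WT libraries. Leaving out each bulb-poor library gave 4584 to 5690. On the libraries with recovered reads, 8 of them bulb-poor, edgeR called 5010, DESeq2 5125 and limma 5046. The 289 genes of the intermediate slope became 177 with the replicate number as a block, 114 without WT vehicle male 1 and 28 without libraries under 400, and the 3617 of the bulb-rich slope became 1460 without those above 2500.

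Same-numbered libraries had a median r of -0.007 over 309 pairs (lowest -0.469, 68 over 0.1; other pairs 0.004), and no label ties a number to a shared source, so the libraries were not treated as paired. With the replicate block the contrast called 4862 genes, of which 4670 were shared, and the bulb-rich slope 3343.

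Over 164 named genes and 37 settings, 5434 of 6032 values kept their direction and side of the threshold, 484 no longer passed, 111 newly passed and 3 reversed. The 3 were Vmn2r84 (0.061), Prc1 (-0.112) and B3gat2 (-0.084), all in WT vehicle libraries only. The 20 genes on each side were picked as the largest differences that passed in this same contrast. Most settings refit the same libraries, so a kept call is a description and not independent support. Of 734 values for the 20 genes furthest toward bulb-rich, 0 lost the call or reversed. Of 729 for the 20 furthest toward bulb-poor, 96 lost it and 1 reversed. Of these 20 genes, 20 lost the call in WT libraries only, 19 in WT vehicle libraries only and 18 in females only. With a lower limit of 50, 12 lost it, and with the meningeal covariate 7. Bulb-rich libraries were not left out singly. Meningeal, striatal and exon-length covariates, the omission of libraries above 2500 or under 400 and of WT vehicle male 1, and the interactions were chosen after seeing the data.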

Other observations

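Choroid plexus genes stand beside the pattern above. Ttr, transthyretin, the main secreted product of choroid plexus, was 0 to 2585 in bulb-poor libraries with a median of 48.0, and 29.1 to 924 in bulb-rich libraries with a median of 90.9. The ranges overlapped and the log2 difference of 0.95 (SE 0.59) did not pass, but Ttr rose in the intermediate libraries (slope 1.41, SE 0.34, limma adjusted p = 0.02575). Of 11 choroid plexus genes tested, 3 were higher and 1 lower, beside 15.2% and 17.4% of all genes. S100a5, a calcium-binding protein gene of olfactory sensory neurons, was below the mean count of 50 that the named genes needed and was chosen after its values were seen. It was 0 to 0.97 in bulb-poor libraries with a median of 0, and 9.98 to 139.7 in bulb-rich libraries with a median of 29.8, without overlap. In the intermediate libraries it was 1.08 to 48.2 and rose with Doc2g (slope 1.25, SE 0.17, limma adjusted p = 3.095e-05).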
